A study of Mus musculus with 12 samples.

Results

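Glycolytic enzyme genes were examined in mouse B cells that carried or lacked LSD1, a histone demethylase whose gene is Kdm1a. The set was fixed by gene symbol and follows the path from hexokinase to phosphoglycerate kinase, with lactate dehydrogenase at its end: the hexokinases Hk1 and Hk2, Gpi1, the phosphofructokinases Pfkl and Pfkp, Aldoa, Tpi1, Gapdh, Pgk1 and Ldha. All 10 genes were found among the 9842 genes of the deposited table, so each of them was tested and none was lost to a filter. The cells came from female C57BL/6J mice, knockout (KO) or wild type (WT) for LSD1. Marginal zone B cells made ex vivo (eMZB) had been kept for 3 days in culture with BAFF, a B cell survival factor, and DL1, a Notch ligand, and were sorted as B220+ CD21+ CD1d+ cells. Transitional B cells (TrB) were sorted from spleen, without stimulation, as B220+ CD93+ cells; cells positive for Thy1.1, F4/80 or CD11b were gated out in both sorts. Each of the 4 groups, eMZB_KO, eMZB_WT, TrB_KO and TrB_WT, had 3 RNA-seq libraries of 2000 cells. The labels do not give the knockout allele, the Cre driver if there was one, or whether replicates were separate animals, so p-values measure only how far these libraries spread, which may reflect technique. The cell type comparison includes the culture, because every eMZB library was cultured and no TrB library was.

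Glycolysis is the cytosolic path that turns glucose into pyruvate, yielding ATP and NADH and feeding carbon into nucleotide, serine and lipid synthesis. Hexokinase traps glucose in the cell, phosphofructokinase is the main controlled step, and lactate dehydrogenase turns pyruvate into lactate and restores the NAD+ that the Gapdh step consumes. Resting B cells run the path at a low rate and raise it when they are activated, and the transcription factors HIF1 and MYC are known to switch on many of its genes.

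Promoter sequences are shown for the 4 genes with ACGTG on either strand, and for Gapdh as a highly expressed member without it. ACGTG is 1 form of the core that HIF1 binds. The other form, GCGTG, was not counted, and it occurs in the Gapdh window. The windows are the 250 bases before an annotated transcript start in RefSeq (GRCm38.p6), read 5′ to 3′ on the strand of the gene. Capitals mark ACGTG or its reverse complement CACGT, which overlap each other where they form the palindrome CACGTG.
Hk2 promoter, chr6:82774455-82774704, minus strand: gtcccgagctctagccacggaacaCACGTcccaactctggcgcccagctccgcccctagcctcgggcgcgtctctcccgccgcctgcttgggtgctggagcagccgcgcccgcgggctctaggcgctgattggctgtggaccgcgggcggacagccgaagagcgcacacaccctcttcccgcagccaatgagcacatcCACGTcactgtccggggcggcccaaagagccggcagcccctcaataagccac
Aldoa promoter, chr7:126799255-126799504, minus strand: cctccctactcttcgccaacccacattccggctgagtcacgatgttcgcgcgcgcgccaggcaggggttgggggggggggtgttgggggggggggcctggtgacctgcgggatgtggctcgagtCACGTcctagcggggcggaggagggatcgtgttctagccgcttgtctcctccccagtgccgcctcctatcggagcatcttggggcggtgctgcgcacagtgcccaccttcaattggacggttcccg
Pgk1 promoter, chrX:106186850-106187099, plus strand: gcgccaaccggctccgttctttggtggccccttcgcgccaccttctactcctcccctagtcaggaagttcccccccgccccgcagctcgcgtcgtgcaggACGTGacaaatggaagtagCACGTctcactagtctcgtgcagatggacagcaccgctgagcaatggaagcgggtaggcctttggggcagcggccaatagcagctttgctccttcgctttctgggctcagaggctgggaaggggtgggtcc
Ldha promoter, chr7:46845554-46845803, plus strand: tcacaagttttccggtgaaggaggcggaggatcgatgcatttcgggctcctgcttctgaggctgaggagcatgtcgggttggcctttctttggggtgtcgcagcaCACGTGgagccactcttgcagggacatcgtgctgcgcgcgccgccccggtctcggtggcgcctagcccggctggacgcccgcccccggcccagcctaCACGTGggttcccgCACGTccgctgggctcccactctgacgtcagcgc
Gapdh promoter, chr6:125165774-125166023, minus strand: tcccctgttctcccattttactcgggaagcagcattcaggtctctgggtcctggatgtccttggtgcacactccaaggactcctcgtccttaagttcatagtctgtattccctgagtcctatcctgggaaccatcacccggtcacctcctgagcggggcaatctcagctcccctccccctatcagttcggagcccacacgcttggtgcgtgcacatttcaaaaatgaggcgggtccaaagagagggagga
All 10 genes matched a promoter window. ACGTG on either strand stood in a window of 4 of the 10 (Hk2, Aldoa, Pgk1 and Ldha), against 25.9% of the 7831 listed genes with a window and 16.6% of all 32851 windows in the table. The Ldha window held 5 matches in 3 stretches, counting both strands of each palindrome, whose nearest bases lay 141, 140, 44, 43 and 30 bases before the start, and it was the only one of the set with CACGTG, the E-box that MYC binds, which was found in 10.3% of listed genes. Hk2 had matches at 222 and 48 bases, Pgk1 at 146 and 127 bases, and Aldoa at 122 bases before the start. GGGCGG, the GC box bound by SP1, was found on either strand in 7 of 10 genes against 62.6% of listed genes. A match describes letters in the window, and no binding was measured in these libraries.

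The unit of the table was FPKM, which divides the reads of a gene by its length in kilobases and by the library's read total in M reads (M, mega). Read totals ranged from 7.24 to 19.3 M, of which listed genes took between 1.96 M in TrB_WT replicate 3 and 8.78 M in TrB_KO replicate 3. TrB_KO replicate 3 stood apart, with 61.6% of its reads in listed genes against 16.7% to 20.9% in the other TrB libraries, and with 285 listed genes at 0 against 19 to 65 in the other 11 libraries. Values were therefore divided by a median-of-ratios factor per library (scaled FPKM), and calls of the set that changed without this library are given with and without it. Kdm1a had 2.65, 2.53 and 2.66 scaled FPKM in eMZB_KO, against 7.53, 8.63 and 4.68 in eMZB_WT. It had 3.35, 2.56 and 2.99 in TrB_KO, against 8.54, 7.93 and 3.47 in TrB_WT. The library labelled TrB_WT replicate 3 thus lay near the knockout libraries, and eMZB_WT replicate 3 lay between the knockout and the other wild-type libraries. The LSD1 comparisons draw on both under those labels. Ly6c2 and Eno1b passed with LSD1 loss in both cell types. Ly6c2 had 9.64 in eMZB_WT replicate 3 and 8.48 in TrB_WT replicate 3, against 45.1 to 54.2 in eMZB_KO and 46.8 to 60.1 in TrB_KO. Eno1b had 1.53 and 1.10 in these libraries, against 3.24 to 3.90 in eMZB_KO and 2.05 to 2.38 in TrB_KO. The cause of the low Kdm1a values was not tested. Of the positive sorting markers, Cr2 and Cd93 differed between the cell types in the direction of the sorts, while the Cd1d1 libraries overlapped in wild type. Cr2 (CD21) had 60.9 to 70.7 in eMZB of both genotypes and 7.79 to 15.3 in TrB, and Cd93 averaged 0.831 in eMZB_KO, 0.873 in eMZB_WT, 5.22 in TrB_KO and 5.002 in TrB_WT. Cd1d1 (CD1d) had 25.4 to 31.0 in eMZB_KO and 22.4 to 22.9 in TrB_KO (log2 change 0.28, limma adjusted p = 0.0431), but 22.5 to 23.0 in eMZB_WT and 19.8 to 24.8 in TrB_WT (log2 change 0.04, limma adjusted p = 0.796).

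Levels per length ran from 0.140 scaled FPKM (Hk2 in a TrB_KO library) to 106 (Gapdh in an eMZB_KO library), and the order of the genes was alike in the 4 groups. In eMZB_KO it ran Gapdh, Ldha, Aldoa, Tpi1, Gpi1, Pgk1, Pfkp, Pfkl, Hk1 and Hk2. Tpi1 and Gpi1 were the only neighbours in that order whose libraries overlapped. In eMZB_WT Aldoa came first, followed by Gapdh and Ldha, which overlapped each other, as did Gpi1 and Tpi1. Both TrB groups began with Gapdh, followed by Ldha and Aldoa, which overlapped. In TrB_KO, Tpi1, Gpi1 and Pgk1 overlapped as neighbours, and so did Pfkp, Pfkl and Hk1. In TrB_WT only Gpi1 and Pgk1 did so further down the order. Hk2 was lowest in all 12 libraries and rested on 10 to 150 reads per library, whereas Aldoa, Gapdh and Ldha had 530 to 4417 reads.

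**Figure D1:**
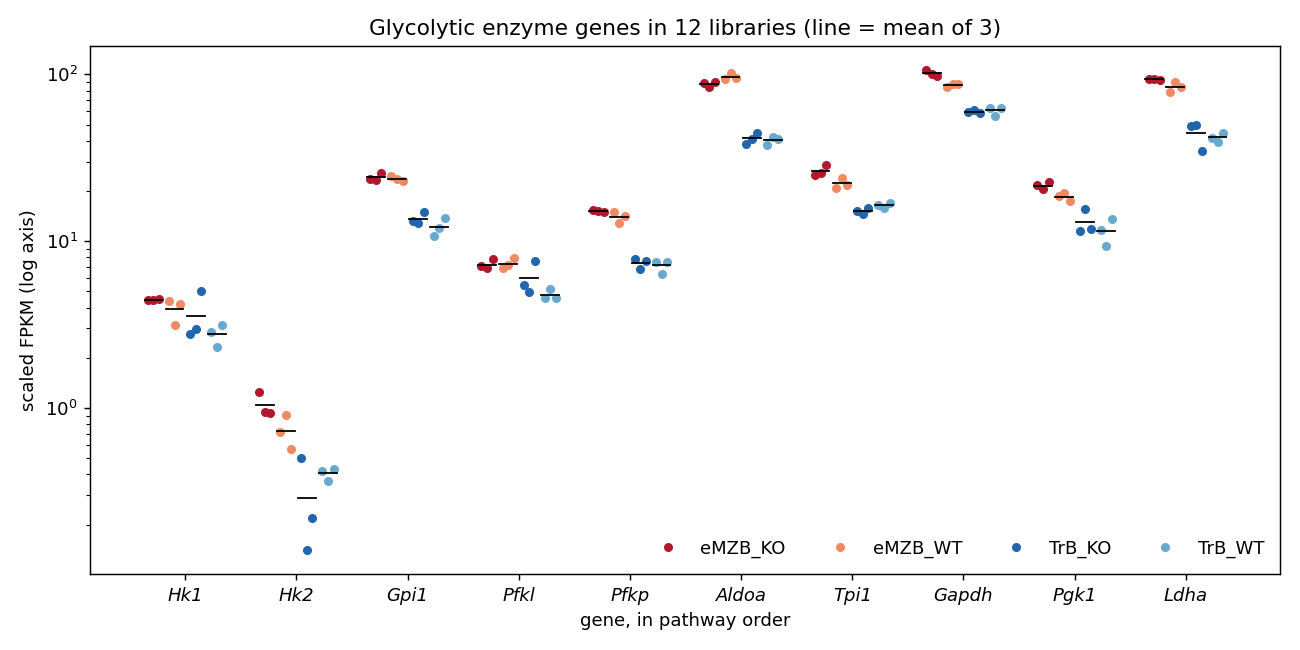
Scaled FPKM (log axis) of the 10 genes, in pathway order along the x axis, in eMZB_KO, eMZB_WT, TrB_KO and TrB_WT. Points are single libraries and lines are means of 3; Hk2 lies lowest throughout, and the eMZB points of Gpi1, Pfkp, Aldoa, Tpi1, Gapdh, Pgk1 and Ldha lie above all TrB points of the same gene.

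The first question was how the enzymes differ between marginal zone cells made in culture and transitional cells sorted from spleen. Most of the path was higher in eMZB in both genotypes. In the knockout 8 of 10 genes passed the test, all higher in eMZB (limma on log2 of scaled FPKM plus 1, Benjamini-Hochberg adjusted p under 0.05 over all genes), where 27.4% of all genes passed in either direction and 14.2% were higher. In wild type 8 of 10 passed, all higher in eMZB, where 27.4% of all genes passed and 14.6% were higher. Gpi1, Pfkp, Aldoa, Tpi1, Gapdh, Pgk1 and Ldha passed in both genotypes, Hk2 in the knockout and Pfkl in wild type, while Hk1 passed in neither. Every eMZB library lay above every TrB library of its genotype in 8 genes in the knockout, as in 22.7% of all genes, and in 9 genes in wild type, as in 21.8% of all genes. The median log2 change of the 10 genes was 0.76 in the knockout and 0.59 in wild type, beside -0.01 and -0.00 over all genes. In bulk samples a change in the number of cells that express a gene and a change in RNA per cell cannot be told apart.

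Hk1 and Hk2 encode hexokinases, which phosphorylate glucose; Hk1 is the widespread form and Hk2 the form that growing cells and muscle use. Hk2 had 1.25, 0.950 and 0.936 scaled FPKM in eMZB_KO, against 0.503, 0.140 and 0.220 in TrB_KO. It had 0.715, 0.904 and 0.569 in eMZB_WT, against 0.419, 0.367 and 0.428 in TrB_WT. Every eMZB library lay above every TrB library, including across genotypes. The ratio of means was 3.64 in the knockout (log2 change 0.68, SE 0.16, limma adjusted p = 0.00865) and 1.80 in wild type (0.30, SE 0.16, adjusted p = 0.199). Because 1 FPKM was added before taking logs, these log2 changes understate the difference of so low a gene. Hk1 had 4.45 ± 0.0314 in eMZB_KO and 3.58 ± 1.25 in TrB_KO (SD, n = 3 each), where TrB_KO replicate 3 reached 5.02 and the other TrB_KO libraries 2.76 and 2.96. It had 3.91 ± 0.651 in eMZB_WT and 2.77 ± 0.433 in TrB_WT, and the lowest eMZB_WT library and the highest TrB_WT library both stood at 3.16. Without TrB_KO replicate 3 Hk1 passed in both genotypes, with log2 changes of 0.50 in the knockout (limma adjusted p = 0.0178) and 0.38 in wild type (adjusted p = 0.0324). The ratio of Hk1 to Hk2 within a library, in which the scaling cancels, was 3.54, 4.65 and 4.79 in eMZB_KO and 5.50, 21.1 and 22.9 in TrB_KO, where 1 Hk2 value rests on 10 reads. It was 6.10, 3.49 and 7.37 in eMZB_WT and 6.81, 6.28 and 7.39 in TrB_WT, where the libraries overlapped.

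Gpi1 encodes the isomerase that turns glucose 6-phosphate into fructose 6-phosphate. It had 23.6, 23.3 and 25.7 scaled FPKM in eMZB_KO, against 13.2, 12.9 and 14.9 in TrB_KO. It had 24.7, 23.7 and 22.9 in eMZB_WT, against 10.7, 12.1 and 13.8 in TrB_WT. The cell types did not overlap in either genotype, and the log2 change was 0.78 in the knockout (SE 0.10, limma adjusted p = 8.4e-05) and 0.91 in wild type (SE 0.10, adjusted p = 2.3e-05).

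The controlled step is carried by phosphofructokinase, a tetramer built from liver-type (Pfkl), platelet-type (Pfkp) and muscle-type subunits. The muscle-type gene, Pfkm, was not among the listed genes. Pfkp had 15.4, 15.1 and 14.9 scaled FPKM in eMZB_KO, against 7.78, 6.85 and 7.57 in TrB_KO. It had 15.1, 12.8 and 14.1 in eMZB_WT, against 7.54, 6.38 and 7.55 in TrB_WT. The eMZB libraries lay well above the TrB libraries in both genotypes, with ratios of means of 2.04 in the knockout and 1.96 in wild type (limma adjusted p = 1.3e-05 and 2.2e-05). Pfkl had 7.07, 6.88 and 7.77 in eMZB_KO, against 5.47, 4.95 and 7.56 in TrB_KO, where the third library overlapped the eMZB_KO range (log2 change 0.25, SE 0.13, limma adjusted p = 0.168). It had 6.88, 7.18 and 7.96 in eMZB_WT, against 4.55, 5.14 and 4.55 in TrB_WT, without overlap (0.54, SE 0.13, adjusted p = 0.00787). Without TrB_KO replicate 3 the knockout change of Pfkl was 0.41 and passed (limma adjusted p = 0.0124). Without the libraries labelled eMZB_WT replicate 3 and TrB_WT replicate 3 the wild-type change was 0.46 and did not pass (adjusted p = 0.0663).

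The balance of the phosphofructokinase subunits also differed between the cell types. Within each library the ratio of Pfkp to Pfkl was 2.17, 2.19 and 1.92 in eMZB_KO and 1.42, 1.39 and 1.001 in TrB_KO. It was 2.19, 1.78 and 1.78 in eMZB_WT and 1.66, 1.24 and 1.66 in TrB_WT. Every eMZB library exceeded every TrB library of its genotype, and the exact two-sided permutation test gave p = 0.1 in each genotype, the smallest that 3 libraries against 3 can give. Pfkp shares 748 exon bases with Pitrm1 on the opposite strand, and the kit does not mark strand, so reads from that stretch cannot be assigned to either gene; Pitrm1 averaged 7.65 scaled FPKM in eMZB_KO, 6.88 in eMZB_WT, 5.04 in TrB_KO and 5.54 in TrB_WT.

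Aldoa, the aldolase that splits fructose 1,6-bisphosphate, had the largest log2 change of the 10 genes in wild type. Its scaled FPKM was 88.7, 84.5 and 90.2 in eMZB_KO, against 38.3, 40.9 and 44.7 in TrB_KO. It was 94.3, 101 and 94.9 in eMZB_WT, against 37.5, 42.3 and 41.1 in TrB_WT. The cell types were far apart with little spread within a group. The log2 change was 1.07 in the knockout (SE 0.08, limma adjusted p = 1.5e-06) and 1.25 in wild type (SE 0.08, adjusted p = 4.2e-07). Tpi1, the triose phosphate isomerase that interconverts the products of aldolase, had 25.0, 25.7 and 28.7 in eMZB_KO, against 15.2, 14.6 and 15.8 in TrB_KO. It had 20.7, 24.1 and 21.8 in eMZB_WT, against 16.4, 15.9 and 17.0 in TrB_WT. The cell types did not overlap, but the ratio of means was 1.74 in the knockout and 1.35 in wild type, the smallest wild-type ratio of the set (limma adjusted p = 3.3e-05 and 0.00317).

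Gapdh and Pgk1 encode the enzymes of the first ATP-yielding part of the path, the dehydrogenase that makes NADH and the kinase that makes ATP. Gapdh had 106, 101 and 98.4 scaled FPKM in eMZB_KO, against 59.2, 61.5 and 58.7 in TrB_KO. It had 83.8, 87.4 and 88.0 in eMZB_WT, against 62.5, 56.7 and 63.2 in TrB_WT. The gene, often used as a constant reference in expression assays, was higher in every eMZB library than in any TrB library, with log2 changes of 0.76 in the knockout (SE 0.07, limma adjusted p = 7.3e-06) and 0.50 in wild type (SE 0.07, adjusted p = 2.0e-04). Pgk1 averaged 21.6 ± 1.08 in eMZB_KO and 13.0 ± 2.23 in TrB_KO, and 18.5 ± 0.971 in eMZB_WT and 11.6 ± 2.12 in TrB_WT (SD, n = 3 each). The cell types did not overlap in either genotype, and the log2 change was 0.70 in the knockout (SE 0.13, limma adjusted p = 0.00186) and 0.65 in wild type (SE 0.13, adjusted p = 0.00317).

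Ldha, the main lactate dehydrogenase subunit of proliferating cells, had 93.6, 94.1 and 92.9 scaled FPKM in eMZB_KO, against 48.8, 49.9 and 34.9 in TrB_KO. It had 78.7, 90.5 and 84.6 in eMZB_WT, against 41.8, 39.5 and 44.3 in TrB_WT. TrB_KO replicate 3 was the lowest of the 12, and all eMZB libraries lay above all TrB libraries. The log2 change was 1.07 in the knockout (SE 0.12, limma adjusted p = 3.3e-05) and 0.997 in wild type (SE 0.12, adjusted p = 5.5e-05). Summed over the 10 genes, scaled FPKM was 387, 376 and 387 in eMZB_KO, against 203, 210 and 201 in TrB_KO. The sum was 348, 370 and 356 in eMZB_WT, against 196, 190 and 209 in TrB_WT. As a share of all listed FPKM in a library, which needs no scaling, the genes took 0.372% to 0.376% in eMZB_KO and 0.198% to 0.205% in TrB_KO. The share was 0.333% to 0.355% in eMZB_WT and 0.188% to 0.205% in TrB_WT, again without overlap.

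**Figure D2:**
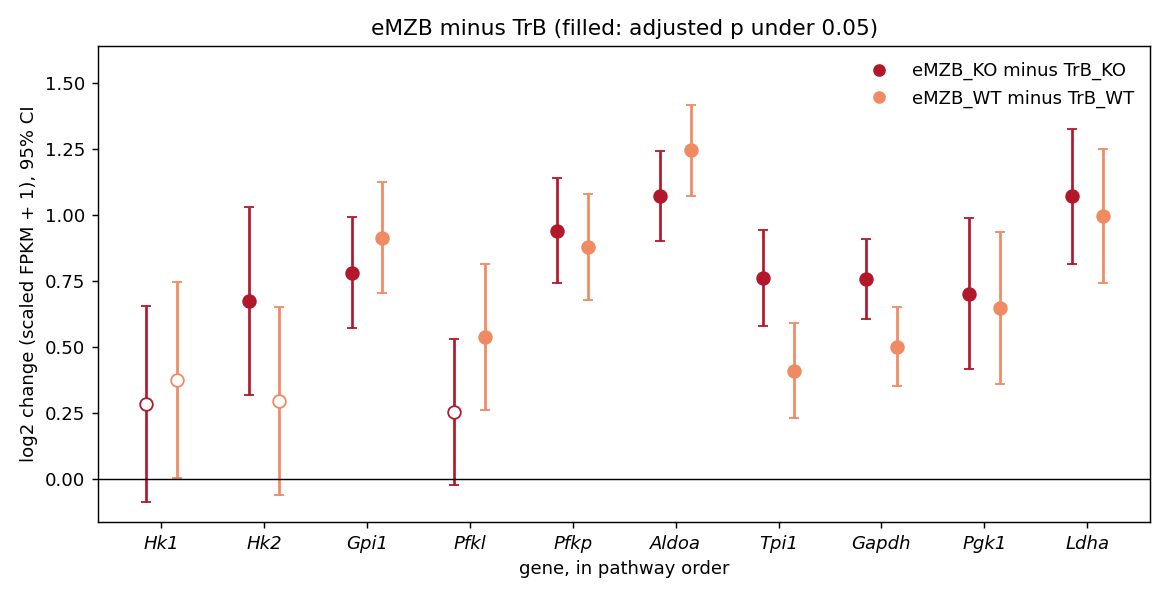
Log2 change of each gene (scaled FPKM + 1, eMZB minus TrB) in knockout and wild type, in pathway order; bars are 95% confidence intervals of the limma fit and filled points passed. Aldoa has the highest wild-type value, 1.25, and Hk1 is open in both genotypes.

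Every called gene kept its call in 12 of 12 fits that each left out 1 library, in both genotypes, and voom on recovered reads called 8 genes in each, beside 34.4% of all genes in the knockout and 23.7% in wild type. On the FPKM values as deposited, which differ in scale between libraries, 3 genes passed in the knockout (Hk2, Aldoa and Ldha) and 8 in wild type, beside 4.67% of all genes in the knockout and 19.3% in wild type. After scaling and without TrB_KO replicate 3, Hk1 and Pfkl also passed in the knockout (limma adjusted p = 0.0178 and 0.0124). The share of all genes that passed in that fit is not given here. RNA of cell cycle genes differed in the same comparison. The summed scaled FPKM of 10 cycling genes, all listed, was 121 to 129 in eMZB_KO and 67.8 to 73.9 in TrB_KO. It was 101 to 112 in eMZB_WT and 52.7 to 68.7 in TrB_WT, and 10 of 10 rose in each genotype. The sum of 8 B cell genes ran the other way, at 1192 to 1239 in eMZB_KO against 1910 to 2186 in TrB_KO, and 1291 to 1412 in eMZB_WT against 2134 to 2472 in TrB_WT. Of the 8, 6 passed as lower in each genotype and Ptprc passed in neither. Cd22 passed as higher in wild type alone (log2 change 0.31, limma adjusted p = 0.0237). The 6 plasma cell genes, all listed, summed to 146 to 164 in eMZB_KO and 122 to 167 in TrB_KO, and to 174 to 176 in eMZB_WT and 96.3 to 123 in TrB_WT. In the knockout Mzb1 passed as higher and Jchain and Sdc1 as lower, and in wild type Mzb1, Prdm1 and Xbp1 passed as higher. The part of these gene lists in the result was not tested.

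Among the glycolysis genes outside the set, calls went in both directions. Of 20 other glycolysis genes 10 were listed, and 5 were higher and 2 lower in eMZB_KO than in TrB_KO, and 5 higher and 1 lower in eMZB_WT than in TrB_WT, with median log2 changes of 0.52 and 0.38. Pkm, the pyruvate kinase of the last step, had 49.4, 45.6 and 54.0 scaled FPKM in eMZB_KO, against 28.9, 31.8 and 38.4 in TrB_KO. It had 41.2, 44.6 and 49.6 in eMZB_WT, against 28.5, 28.6 and 31.3 in TrB_WT. No library of 1 cell type reached the other within a genotype (log2 change 0.58, limma adjusted p = 0.00198 in the knockout; 0.60, adjusted p = 0.00168 in wild type). Eno1, the enolase, rose by 0.66 in the knockout and 0.36 in wild type on the log2 scale (SE 0.08 each), and Pgam1, the phosphoglycerate mutase, by 0.55 and 0.52 (SE 0.09 each). Aldoc, another aldolase, rose by 0.70 and 0.78 and stayed at or below 1.46 scaled FPKM in all libraries. Pgam2, the muscle-type mutase, was lower in eMZB, with log2 changes of -1.23 in the knockout and -1.40 in wild type (SE 0.19 each). Bpgm, which makes 2,3-bisphosphoglycerate, fell in the knockout (-0.55, limma adjusted p = 0.0162) and had -0.14 in wild type (adjusted p = 0.536).

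Transport genes and regulators of the path were called in both directions. Of 10 glucose and lactate transport genes 6 were listed, with 2 higher and 1 lower in the knockout and 0 higher and 1 lower in wild type. Slc16a1, the lactate transporter MCT1, had 4.30, 4.10 and 4.66 scaled FPKM in eMZB_KO, against 2.05, 1.20 and 0.945 in TrB_KO. It had 3.01, 1.89 and 3.09 in eMZB_WT, against 1.87, 1.35 and 1.47 in TrB_WT. The groups were separate in both genotypes, with a log2 change of 1.18 in the knockout (limma adjusted p = 4.5e-04) and 0.50 in wild type (adjusted p = 0.0563). Slc2a1, the glucose transporter GLUT1, had changes of 0.01 in the knockout and 0.15 in wild type (limma adjusted p = 0.971 and 0.342), and Slc2a3 (GLUT3) had 0.59 and 0.37 (adjusted p = 0.0301 and 0.148). Slc16a7, another monocarboxylate transporter, fell at -0.54 and -0.62 and kept that call in 4 and 8 of 12 fits without 1 library.

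Of 12 regulators of the path 8 were listed, and 2 were higher and 2 lower in each genotype. Txnip, which holds back glucose uptake, had 35.0, 35.2 and 33.4 scaled FPKM in eMZB_KO, against 68.7, 69.5 and 80.8 in TrB_KO. It had 31.2, 34.0 and 35.7 in eMZB_WT, against 70.2, 72.1 and 88.2 in TrB_WT. Every eMZB library was below every TrB library (log2 change -1.06 in the knockout, limma adjusted p = 9.3e-06; -1.16 in wild type, adjusted p = 4.1e-06). Pfkfb4 rose and Pfkfb3 fell, both encoding bifunctional enzymes that set fructose 2,6-bisphosphate, the activator of phosphofructokinase. Pfkfb4 had log2 changes of 0.63 and 0.69 and Pfkfb3 of -0.59 and -0.79, in the knockout and in wild type. Pdk3, a kinase that restrains pyruvate dehydrogenase, rose by 0.41 in the knockout and 0.72 in wild type.

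The lists of neighbouring pathways are read beside the 27.4% of all genes that passed in each genotype. Of 23 genes for pyruvate dehydrogenase and the TCA cycle, all listed, 2 were higher and 3 lower in the knockout, and 2 higher and 2 lower in wild type, with median log2 changes of 0.03 and 0.06. Mpc1, a subunit of the mitochondrial pyruvate carrier, rose by 0.67 in the knockout and 0.51 in wild type, and Mdh2, malate dehydrogenase, by 0.41 in each. Pdhx fell at -0.44 and -0.38 and Idh3g at -0.27 and -0.29. As deposited the wild-type values were 0.29 and 0.56 and the knockout value of Idh3g was 0.03. On that scale the median log2 change over all genes was 0.67 in wild type and 0.23 in the knockout, above each of these values. Of 7 pentose phosphate genes 6 were listed and 0 passed in either genotype. Of 7 gluconeogenesis genes 2 were listed, and Pck2, the mitochondrial PEP carboxykinase, rose by 0.95 and 1.25. Of 20 hypoxia response genes 15 were listed, with 5 higher and 4 lower in the knockout and 4 higher and 0 lower in wild type. Vegfa and Ddit4, both HIF1 targets, rose by 1.44 and 1.46 in the knockout and by 1.46 and 1.27 in wild type. Vegfa rested on 2 to 12 reads per library in TrB_KO and 4 to 9 in TrB_WT. The 4 lower in the knockout were Bnip3l, Mxi1, Vhl and Hif1an. Bnip3l had -0.50 in the knockout (limma adjusted p = 0.00342) and -0.25 in wild type (adjusted p = 0.0856). As deposited it had -0.23 and 0.53, each below the median over all genes on that scale. Hif1a itself had 0.21 (limma adjusted p = 0.233) in the knockout and 0.60 (adjusted p = 0.00268) in wild type. On the deposited values Aldoc, Slc16a1, Vegfa and Ddit4 passed in both genotypes and Pkm, Pgam1, Pfkfb4, Pdk3, Mpc1, Mdh2, Pck2 and Hif1a in wild type alone, whereas Eno1, Pgam2, Txnip and Pfkfb3 kept their sign and passed in neither.

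**Figure D3:**
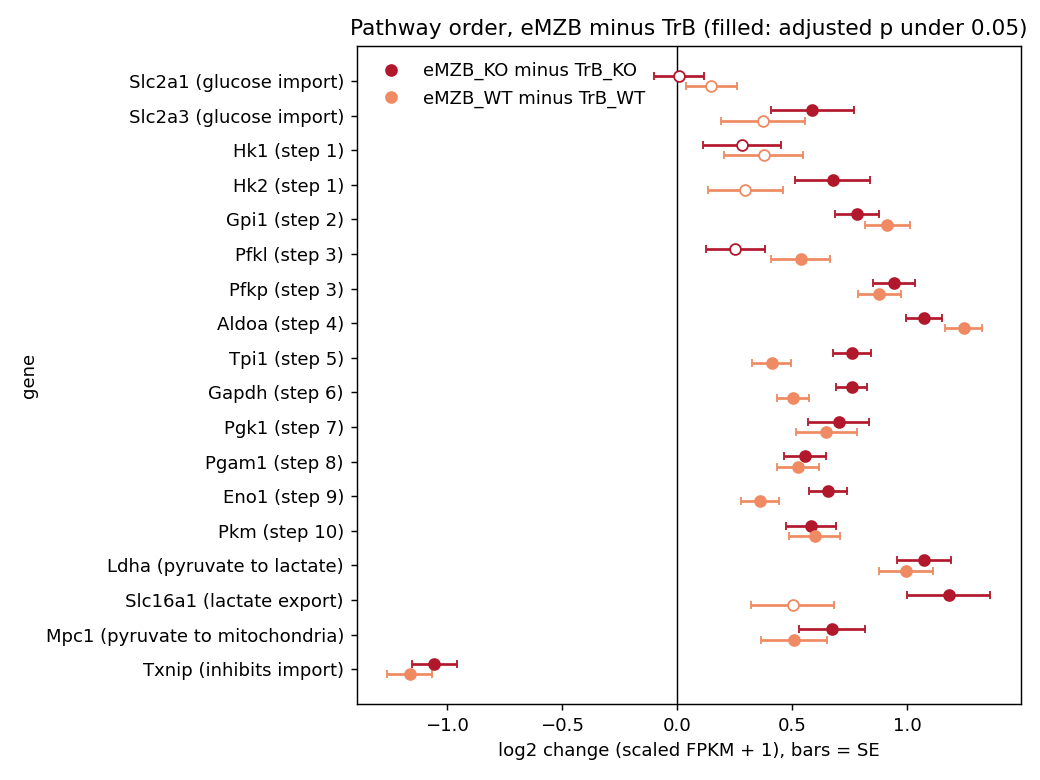
Log2 change (scaled FPKM + 1, eMZB minus TrB) in knockout and wild type along the path from glucose import to lactate export, with Mpc1 and Txnip below; bars are SE and filled points passed. Slc2a1 lies at 0.01 and 0.15 while the enzymes from Gpi1 to Ldha lie to the right of 0, and Txnip lies at -1.06 and -1.16.

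The second question was what LSD1 loss does to the enzymes in each cell type. Of the 10 genes 0 passed in eMZB_KO against eMZB_WT, where 0.406% of all genes did; at an unadjusted p under 0.05 there were 2, Gapdh and Tpi1, beside 5.39% of all genes, and voom called 0 of 10 beside 0.528% of all genes. In 6 genes (Hk1, Hk2, Tpi1, Gapdh, Pgk1 and Ldha) every eMZB_KO library lay above every eMZB_WT library, an arrangement seen in 9.13% of all genes, and in Aldoa every eMZB_KO library lay below, as in 9.29% of all genes. Gapdh had 98.4 to 106 scaled FPKM in eMZB_KO and 83.8 to 88.0 in eMZB_WT, a log2 change of 0.23 (95% confidence interval 0.08 to 0.38, unadjusted p = 0.00524, limma adjusted p = 0.391). Tpi1 had 25.0 to 28.7 in eMZB_KO and 20.7 to 24.1 in eMZB_WT, a change of 0.24 (0.06 to 0.43, unadjusted p = 0.0124, limma adjusted p = 0.604). Aldoa had 84.5 to 90.2 in eMZB_KO and 94.3 to 101 in eMZB_WT, a change of -0.14 (-0.31 to 0.03). The other 7 genes had changes from -0.02 (Pfkl) to 0.24 (Hk2). The median of the 10 was 0.15, beside -0.00 over all genes.

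In TrB 0 of 10 genes passed with LSD1 loss, where 0.498% of all genes did; 0 did so at an unadjusted p under 0.05, beside 9.91% of all genes, and voom called 0 of 10 beside 0.213% of all genes. Changes ran from -0.14 (Hk2, 95% confidence interval -0.49 to 0.22) to 0.27 (Pfkl, -0.01 to 0.54), and the lowest limma adjusted p was 0.523, for Pfkl. Tpi1 was the only gene of the set whose libraries were separate, with 14.6 to 15.8 scaled FPKM in TrB_KO and 15.9 to 17.0 in TrB_WT; 4.37% of all genes were lower in this way. The intervals were narrowest for Gapdh (-0.17 to 0.13) and Aldoa (-0.14 to 0.20) and widest for Hk1 (-0.12 to 0.62) and Hk2. TrB_KO replicate 3 held the highest TrB_KO value of Hk1, Gpi1, Pfkl, Aldoa and Tpi1 and the lowest of Gapdh and Ldha. Without that library the log2 change was 0.11 for Pfkl, 0.04 for Hk1 and 0.23 for Ldha, against 0.27, 0.25 and 0.07 with it.

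Whether LSD1 loss acted differently in the cell types was tested as an interaction, the eMZB response minus the TrB response. None of the 10 genes passed, with 0.0102% of all genes passing; 2 had an unadjusted p under 0.05, beside 6.85% of all genes, and voom called 0. Tpi1 had an interaction of 0.35 (SE 0.12, unadjusted p = 0.0116, limma adjusted p = 0.684) and Gapdh one of 0.26 (SE 0.10, unadjusted p = 0.0222, limma adjusted p = 0.686). The other values ran from -0.28 (Pfkl) to 0.38 (Hk2).

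**Figure D4:**
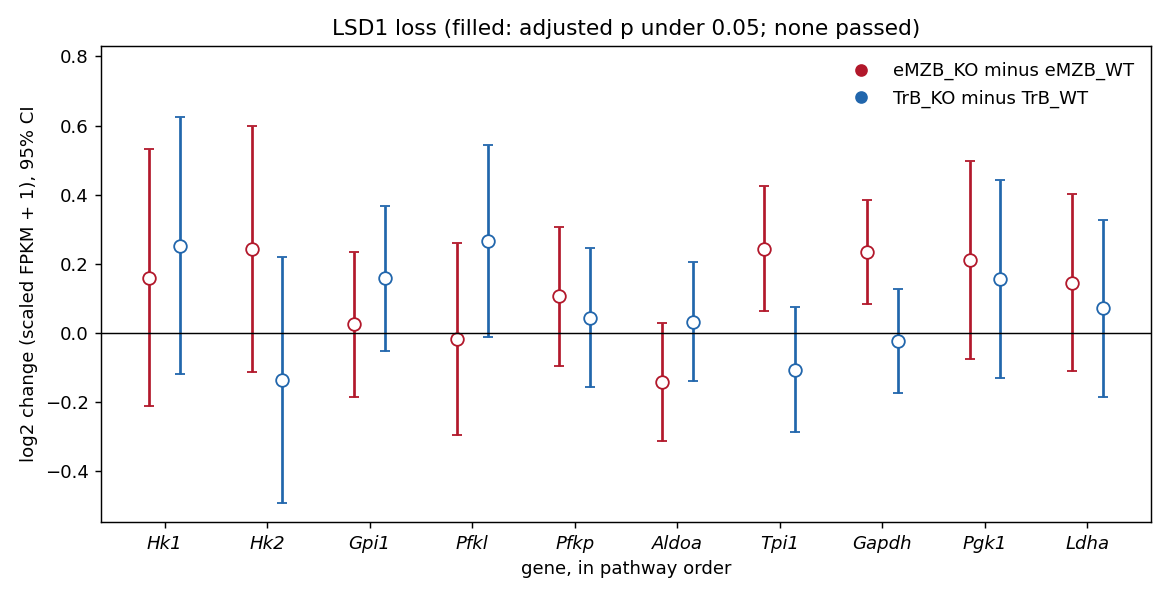
Log2 change of each gene with LSD1 loss (scaled FPKM + 1, KO minus WT) in eMZB and in TrB; bars are 95% confidence intervals, and all points are open because no gene passed. The eMZB intervals of Tpi1 and Gapdh lie above 0, and all TrB intervals include 0.

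Within a library, the shares of all 10 genes were compared between the genotypes of each cell type. Aldoa took 22.9%, 22.4% and 23.3% of the summed FPKM of the 10 genes in eMZB_KO, against 27.1%, 27.4% and 26.6% in eMZB_WT. It took 18.9%, 19.5% and 22.2% in TrB_KO, against 19.1%, 22.3% and 19.7% in TrB_WT. The eMZB genotypes were thus separate and the TrB genotypes overlapped. Gapdh took 27.5%, 26.8% and 25.4% in eMZB_KO, against 24.1%, 23.6% and 24.7% in eMZB_WT. It took 29.2%, 29.3% and 29.2% in TrB_KO, against 31.9%, 29.8% and 30.3% in TrB_WT. The Gapdh share was therefore higher in eMZB_KO than in eMZB_WT and lower in TrB_KO than in TrB_WT, without overlap in either cell type. Tpi1 took 6.93% to 7.86% in TrB_KO and 8.13% to 8.37% in TrB_WT, and its eMZB libraries overlapped. Pgk1 took 5.59%, 5.44% and 5.85% in eMZB_KO, against 5.39%, 5.22% and 4.89% in eMZB_WT, and its TrB libraries overlapped. The shares of the remaining genes overlapped between the genotypes in both cell types. Each of these separations has p = 0.1 in an exact two-sided permutation test, the smallest possible with 3 libraries against 3, and the shares of 10 genes are not independent of each other.

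**Figure D5:**
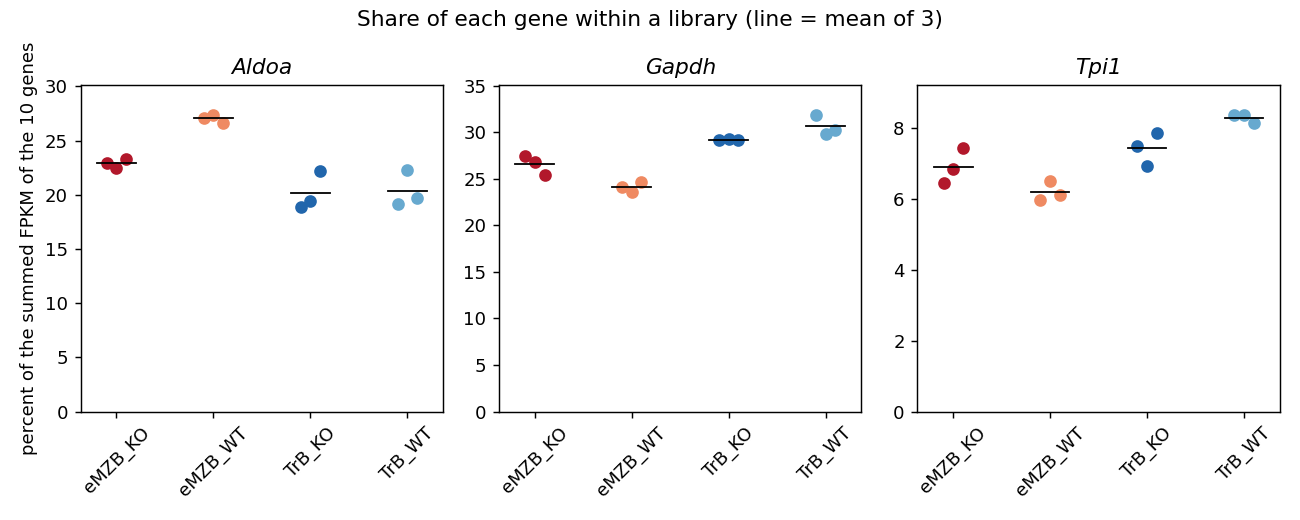
Percent of the summed FPKM of the 10 genes taken by Aldoa, Gapdh and Tpi1 in each library of eMZB_KO, eMZB_WT, TrB_KO and TrB_WT; points are libraries and lines means of 3. Aldoa averages 22.9% in eMZB_KO and 27.0% in eMZB_WT, and 20.2% and 20.4% in TrB_KO and TrB_WT.

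Among the listed genes outside the set, 1 glycolysis gene passed with LSD1 loss. Eno1b, a near-identical copy of Eno1 with which it may share reads, had 3.90, 3.24 and 3.56 scaled FPKM in eMZB_KO, against 1.59, 1.65 and 1.53 in eMZB_WT. It had 2.30, 2.05 and 2.38 in TrB_KO, against 0.697, 1.08 and 1.10 in TrB_WT. It was higher in every knockout library of each cell type, by 0.82 in eMZB (limma adjusted p = 0.0103, a call kept in 8 of 12 fits without 1 library) and by 0.73 in TrB (adjusted p = 0.0170, kept in 9 of 12). It did not pass on the deposited values. In eMZB and in TrB, 0 genes of the transport, regulator, pyruvate dehydrogenase and TCA cycle, pentose phosphate, gluconeogenesis and hypoxia lists passed with LSD1 loss. Of 10 macrophage and monocyte markers 5 were listed, and they summed to 56.7 to 64.1 in eMZB_KO and 16.7 to 27.9 in eMZB_WT, and to 52.8 to 69.5 in TrB_KO and 12.7 to 15.3 in TrB_WT. Ly6c2 was the largest part of that sum on average, with means of 49.1 in eMZB_KO, 15.8 in eMZB_WT, 51.7 in TrB_KO and 7.80 in TrB_WT, and Csf1r, Lyz2, Cd14, Fcgr1 and C1qa were not among the listed genes. Of the 5, only Ly6c2 passed with LSD1 loss, in eMZB and in TrB. Adgre1 averaged 1.31 in TrB_KO and 2.27 in TrB_WT, and Cd68 averaged 1.84 and 2.62, while Itgam and Mpeg1 were higher in TrB_KO. The part of these markers in the Eno1b result was not tested.

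The genes whose scaled FPKM ran most like the mean of the set across the 12 libraries were Ccr6, Hsp90ab1, Fcrl5, Hspa8 and Jak3, with Pearson r of 0.991, 0.990, 0.989, 0.989 and 0.988. Ccr6 and Fcrl5 are B cell surface receptors, Hsp90ab1 and Hspa8 are cytosolic chaperones, and Jak3 is a cytokine receptor kinase. Within the set, Gpi1 ran most like Aldoa (r = 0.976), and Pfkp, Ldha, Tpi1 and Pgk1 most like Gapdh (0.966, 0.963, 0.961 and 0.936). The 12 libraries fall into the 2 cell types, so these values describe a shared step between them.

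The genes lie on chromosomes 6, 7, 10, 13 and X (GRCm38, RefSeq). Aldoa (Entrez 11674) spans chr7:126795234-126800994, Ldha (16828) chr7:46842274-46855627 and Gpi1 (14751) chr7:34201327-34230336. Hk2 (15277) spans chr6:82725025-82774454, Tpi1 (21991) chr6:124810586-124814158 and Gapdh (14433) chr6:125161852-125166467. Hk1 (15275) spans chr10:62268855-62379920, Pfkl (18641) chr10:77986947-78009807, Pfkp (56421) chr13:6579874-6649060 and Pgk1 (18655) chrX:106187100-106203699. The GENCODE annotation holds copies of Aldoa (2), Gapdh (2), Pgk1 (3) and Ldha (2) named with -ps or -rs, with which reads may be shared. Copies under other names were not counted for any gene. In the same annotation, opposite-strand exons overlap Gpi1 by 741 bases, Hk1 by 157, Gapdh by 68, Tpi1 by 34 and Aldoa by 25, and reads there cannot be assigned to a strand.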

How the data were processed

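RNA from 2000 sorted cells per library was converted with SMART-Seq v4 and Nextera XT, which does not mark strand, per the labels' protocols. STAR and mm10 are named in the submitters' processing notes, with versions, counting program and annotation not given in the sources used here. In a table of 9842 genes and 12 libraries, the authors deposited FPKM values. Of the Entrez IDs, 9833 matched a symbol.

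Whole reads were recovered from the FPKM values with 1 length per gene, which left every value of all 9842 genes within 0.02 of a whole read. Without molecular identifiers PCR reads are not independent, and read numbers cover counting error only. No pair of replicates was a duplicate, since their differences exceeded counting noise by 2.57 to 18.6 times.

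FPKM values were divided by median-of-ratios factors (0.613 to 2.14) (chosen with the data in view). The test was limma 3.58.1 (R 4.3.3; lmFit, eBayes with trend) on log2 of scaled FPKM plus a pseudocount of 1, with 4 group means, 8 residual degrees of freedom and Benjamini-Hochberg adjustment over 9842 genes at 0.05. The fit was tested on simulated data. Shares within libraries were compared by exact permutation. Python 3.11.15, pandas 2.3.3, numpy 2.4.6, scipy 1.17.1 and matplotlib 3.10.9 served for the rest. Genes like the set were ranked by Pearson r among genes with a mean of at least 5 scaled FPKM. The members, gene lists and rule for named genes were chosen with earlier results of these data known. All members are named, with list genes by smallest adjusted p or defining role.

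The labels give replicate numbers but not their meaning. Deviations from the group mean were correlated between same-numbered libraries of eMZB_KO and TrB_KO (r = 0.162, 0.106 and 0.292, all above 0.1). The other pairs of groups did not meet this rule. Replicate number was used as a block in alternative fits, over all 4 groups or within each genotype, so the blocks also cover groups that did not meet the rule. Other alternatives were the deposited scale, equal sums, other pseudocounts, a filter on low values, the compared groups alone, no trend, voom on recovered reads and fits without single libraries. A planned comparison of protein sequences was not run.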

Additional observations from a re-analysis of the deposited data

Results flagged for a closer look

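Tpi1 had opposite signs for LSD1 loss in the cell types, and passed in neither (limma adjusted p = 0.604 in eMZB and 0.688 in TrB). Every eMZB_KO library (25.0, 25.7 and 28.7 scaled FPKM) lay above every eMZB_WT library (20.7, 24.1 and 21.8), while every TrB_KO library (15.2, 14.6 and 15.8) lay below every TrB_WT library (16.4, 15.9 and 17.0). The difference between the responses was 0.35 on the log2 scale (SE 0.12) and did not pass (limma adjusted p = 0.684; 0.437 by voom). The library labelled TrB_WT replicate 3 has a Kdm1a level near that of the knockout and the highest Tpi1 value of the TrB libraries.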

How the results depend on the processing

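The number of the 10 genes called was 3 to 10 between the cell types in the knockout and 7 to 9 in wild type over the alternatives run, and 0 in every alternative for LSD1 loss in either cell type and for the interaction. The knockout count of 3 came on the deposited scale, where 460 of all genes passed in place of 2695. Gapdh, Gpi1, Pgk1, Tpi1 and Pfkp then had changes of 0.99 to 1.22 with limma adjusted p of 0.107 to 0.255. The median change over all genes on that scale was 0.23, and less that median the changes of these genes were 0.76 to 0.99. Without single libraries the knockout count was 8 to 10 and the wild-type count 8 to 9. The shares of all genes that passed in these fits are not given here, so the counts cannot be read against them. Hk2 lost its knockout call when the 2 groups were fitted alone (adjusted p = 0.0591), and Hk1 and Hk2 had no value under the filter of 5 scaled FPKM. Of 1210 member results under alternatives 0 reversed a called direction and 35 changed the sign of an uncalled value.

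The replicate block kept 8 calls of the set in each cell type comparison and 0 elsewhere. Over all genes it called 2674 in the knockout and 2735 in wild type. Blocked within genotype it called 2683 in the knockout and 2857 in wild type, and it changed no other call of the set. Counts over all genes for LSD1 loss in TrB were 49, and 19 as deposited, 9 with the groups alone, 21 by voom, 26 to 54 without single libraries and 123 without TrB_KO replicate 3 and both wild-type libraries of low Kdm1a (chosen after seeing the data). For LSD1 loss in eMZB they were 40, and 15, 65 and 52 by the same first 3 changes, 16 to 52 without single libraries, 23 without both wild-type libraries of low Kdm1a and 69 with TrB_KO replicate 3 also left out. For the interaction they were 1, and 15 as deposited, 6 with a pseudocount of 5, 0 under the filter, 2 without both libraries of low Kdm1a, 14 with TrB_KO replicate 3 also left out and 1 to 5 without single libraries; the cause was not tested. Depth limits Hk2 most, at 10 to 150 reads per library.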
